A study of Anguilla japonica with 6 samples.

Results

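Genes of sterol synthesis, cholesterol transport and steroid metabolism were examined in RNA-seq libraries from pituitaries of female Japanese eel (Anguilla japonica). They were taken by symbol from the deposited table, with a pattern that covers enzyme families (such as hmgc, hsd and srd5), the stard and osbp lipid transfer families, sterol sensors and lipoprotein receptors. The pattern matched 78 of 32359 genes. No cytochrome P450 symbol (cyp followed by a digit) and no msmo symbol matched, so the side-chain cleavage enzyme and aromatase are not analysed here. Genes that carry only a LOC identifier are not covered either. Some matched genes are known for other tasks: stard13 and stard8 encode GTPase-activating proteins, stard9 a kinesin, and abca12 a skin lipid transporter in mammals.

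By the labels, 3 libraries are from matured and 3 from pre-matured fish. All 6 are total RNA of the pituitary of females, with no treatment or genotype named. The labels give the group under age. Natural and induced maturation cannot be told apart from them, and they name no individual fish, so p-values measure only the spread between these samples. Values were read as FPKM, reads per length of the gene and size of the library, so levels can be set side by side between genes. Where 3 values are given for a group, they are libraries 1, 2 and 3 in that order. Reads rebuilt from the values summed to 15886482, 19443791 and 16119654 in matured 1, 2 and 3 and to 19122423, 18408051 and 18057563 in pre-matured 1, 2 and 3. Of the pituitary's defining genes, growth hormone (gh1), pou1f1 and lhx3 were present in every library, while prolactin (prl) is listed at 0 in 5 of 6 libraries and tshba did not pass 1.01 FPKM in any. In a bulk sample, fewer cells of a type and less RNA per cell cannot be told apart.

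Cholesterol is built in the endoplasmic reticulum from acetyl-CoA by way of mevalonate, squalene and lanosterol. When membrane sterol is low, the escort protein SCAP carries the transcription factor SREBP2 (gene srebf2) to the Golgi for release, and INSIG proteins hold this complex back when sterol is plentiful. Cells also take up cholesterol from lipoproteins through receptors and move it between membranes with transfer proteins. Steroidogenic tissues cut it to steroid hormones, and in other tissues, the pituitary among them, hydroxysteroid dehydrogenases and reductases convert or inactivate the steroids that arrive in blood.

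Of the 78 genes, 65 passed the filter of 1 FPKM or more in at least 3 libraries. The 13 under it were lss, ldlrad2, ldlrb, npc1l1, osbpl7, stard13a, abca12, abcg2a, abcg5, abcg8, hsd17b1, srd5a2b and star. Matured pituitaries had higher levels of 21 and lower levels of 4 (limma on log2(FPKM + 1), Benjamini-Hochberg adjusted p under 0.05 over all 17887 genes tested). Among all genes tested 23.4% were higher and 10% lower, and among genes with a symbol 21.9% and 10.6%. Of the 65, 5 genes passed the filter only through the matured libraries (ldlrad3, ldlrap1b, stard9, stard8 and abcg4a), and 2 of them, ldlrad3 and stard9, are among the 21. The groups did not overlap for 35 of the 65 genes, with 27 above and 8 below in every matured library, and for 33.3% and 15.9% of all genes tested in those directions (32.3% and 17.3% of those with a symbol). The filter alone fixed this for the 5 genes that passed only through the matured libraries, all of them among the 27. The median log2 fold change was 0.47 for the 65 genes and 0.23 for all genes tested. The split of calls moved with scaling: 27 higher and 3 lower with TPM, 29 and 3 with trimmed totals (library totals that leave out genes above 1%), 24 and 3 with voom on rebuilt reads, 11 and 6 with quantile normalization, and 12 and 6 with median-ratio scaling. Of all genes tested, 31.3% were higher and 5.08% lower with TPM, and 34.9% and 5.71% with trimmed totals. These shares were 22.2% and 8.78% with voom, 16.3% and 16.2% with quantile normalization, and 17.9% and 15.4% with median-ratio scaling. The median of all genes was then 0.53, 0.51, 0.31, -0.025 and 0.023 on the log2 scale, and the median of the tested members lay 0.20 to 0.24 above it under all 6 scalings. Without matured 2 it lay 0.12 above, and without matured 3 it lay 0.035 above, or 0.17 above in both cases with the same genes tested. The 8 genes hsd17b3, hsd20b2, srd5a1, tspo, srebf2, scarb1, scarb2c and stard4 were called under every alternative fit run with a threshold of 0.05. These were other filters, pseudocounts and scalings, and the removal of any 1 library.

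Some marker genes of other cells also differed between groups, while most were not called. The summed level of 4 red blood cell genes was 21.8 to 27.1 FPKM in matured libraries and 40.7 to 103 FPKM in pre-matured ones, with alas2 lower and the other 3 not called. Alas2 made 76.6, 7.12 and 15.0 FPKM of the sums in the pre-matured libraries. Epb41b, urod and cahz had log2 fold changes of -0.48, -0.71 and 0.13. Of 16 listed red blood cell symbols only these 4 were found, none of them a haemoglobin gene. For 10 fibroblast and mural cell genes the sum was 157 to 206 FPKM in matured libraries against 475 to 493 FPKM in pre-matured ones, with tagln and acta2 lower, pdgfra higher and 5 of the 8 tested not called. Tagln made this gap: without it the sum was 77.7 to 141 FPKM in matured and 67.8 to 86.2 FPKM in pre-matured libraries, and 6 of the 8 tested genes had a log2 fold change above 0 (list median 0.65). Pdgfra and the white blood cell gene csf1ra passed the filter only through the matured libraries. The other lists overlapped between groups in their sums. White blood cell genes (10) summed to 587 to 718 FPKM in matured and 541 to 1007 FPKM in pre-matured libraries, with 1 of 7 tested higher. Endothelial genes (10) summed to 75.4 to 89.7 FPKM in matured and 47.8 to 84.7 FPKM in pre-matured libraries, with 1 of 9 higher. Glial and pituicyte genes (12) summed to 221 to 306 FPKM in matured and 202 to 364 FPKM in pre-matured libraries, with 1 of 10 higher and 1 lower. Myelin genes (4) summed to 15.3 to 41.4 FPKM in matured and 8.84 to 101 FPKM in pre-matured libraries with 1 of 2 higher. Neuronal genes (11) summed to 215 to 258 FPKM in matured and 166 to 288 FPKM in pre-matured libraries with 1 of 8 lower. Liver genes (7) reached at most 5.84 FPKM in sum, with fga and ttr at 0 in every library. The part of these cells in the results below was not tested. Hormone and lineage genes of the pituitary itself (15) summed to 18185 to 44238 FPKM in matured and 3876 to 4046 FPKM in pre-matured libraries, with gh1, lhb and pitx1 higher and tbx19 lower among 11 tested.

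The group of steroid hormone synthesis and inactivation genes held the largest single difference of the set. It was drawn by symbol and also holds tspo and star, which are not enzymes, and srd5a3 and hsd17b genes with mainly other roles. Of 15 genes in this group 12 were tested, 3 were higher (hsd17b3, hsd20b2 and srd5a1) and 2 lower (tspo and hsd11b2) in matured pituitaries. These are 25% and 16.7%, against 23.4% and 10% of all genes tested. Hsd17b3 encodes a hydroxysteroid dehydrogenase that in mammals makes testosterone from androstenedione in the testis. It had 147, 90.8 and 167 FPKM in the matured libraries, against 0.633, 8.32 and 3.54 FPKM in the pre-matured libraries. All matured libraries lay above all pre-matured ones, on 4090 to 6232 reads against 28 to 355 reads (log2 fold change 5.004 ± 0.59 SE, limma adjusted p = 0.00184). The ratio of the group means was 32.4. It was the highest gene of the set in each matured library, with 16.8%, 10.3% and 17.4% of the summed FPKM of the 78 genes, against 0.098%, 1.06% and 0.366% in the pre-matured libraries. Among all genes it ranked 381, 635 and 333 in matured 1, 2 and 3, and 17215, 7171 and 11330 in pre-matured 1, 2 and 3.

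Hsd20b2, whose zebrafish counterpart takes part in the breakdown of cortisol, was at 20.4, 20.5 and 13.7 FPKM in the matured libraries, against 6.65, 5.31 and 4.24 FPKM in the pre-matured libraries (log2 fold change 1.58 ± 0.25 SE, limma adjusted p = 0.00309). Matured 3 was the lowest of its group, and the groups did not overlap. Srd5a1, a steroid reductase that makes dihydrotestosterone from testosterone, was measured at 8.03, 9.37 and 10.8 FPKM in the matured libraries, against 3.05, 3.28 and 1.104 FPKM in the pre-matured libraries (log2 fold change 1.64 ± 0.32 SE, limma adjusted p = 0.00643). Its lowest value was in pre-matured 3, on 27 reads, and the groups stood apart. The related srd5a2a gave 13.7, 14.49 and 8.51 FPKM in the matured libraries, against 9.24, 4.63 and 7.65 FPKM in the pre-matured libraries and was not called (log2 fold change 0.71 ± 0.30 SE, limma adjusted p = 0.102). Matured 3 lay below pre-matured 1 there. Srd5a3, which reduces polyprenol for protein glycosylation, had a log2 fold change of 0.04 with a 95% interval from -0.43 to 0.50.

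The translocator protein gene tspo, of the outer mitochondrial membrane, stood at 2.04, 2.65 and 2.63 FPKM in the matured libraries, against 15.2, 11.4 and 8.46 FPKM in the pre-matured libraries (log2 fold change -1.86 ± 0.26 SE, limma adjusted p = 0.00223). Every matured library was below every pre-matured one, and the matured values lay close together. Hsd11b2, the enzyme that inactivates cortisol to cortisone, was at 10.9, 13.98 and 1.97 FPKM in the matured libraries, against 21.3, 32.5 and 34.4 FPKM in the pre-matured libraries (log2 fold change -1.88 ± 0.58 SE, limma adjusted p = 0.04). Matured 3 was far below the other matured libraries, and the groups did not overlap. Without matured 3 its log2 fold change was -1.16 and it was still called, while the call was lost with TPM, with trimmed totals, with no filter, and without matured 1 or any 1 pre-matured library (adjusted p up to 0.0959 over all 14 alternative fits). The steroidogenic acute regulatory protein gene star, which admits cholesterol to mitochondria in steroid-making cells, was not tested, with at most 7 reads in any library. Hsd17b1 is listed at 0 in all 6 libraries.

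The other hsd17b genes of this group serve mainly fatty acid and other metabolism, and none was called. Hsd17b10, a mitochondrial enzyme, was at 16.7, 16.1 and 16.4 FPKM in the matured libraries, against 25.9, 19.2 and 21.8 FPKM in the pre-matured libraries without overlap (log2 fold change -0.41 ± 0.19 SE, limma adjusted p = 0.133). Hsd17b14 and hsd17b8 had log2 fold changes of 0.45 and 0.49, with 95% intervals from -0.10 to 0.99 and from -0.37 to 1.35. The peroxisomal enzyme gene hsd17b4 had 0.11, with an interval from -0.77 to 0.995. Hsd17b12a, of fatty acid elongation, was at 10.9 FPKM in matured 1 and between 1.58 and 3.71 FPKM in the other 5 libraries.

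**Figure D1:**
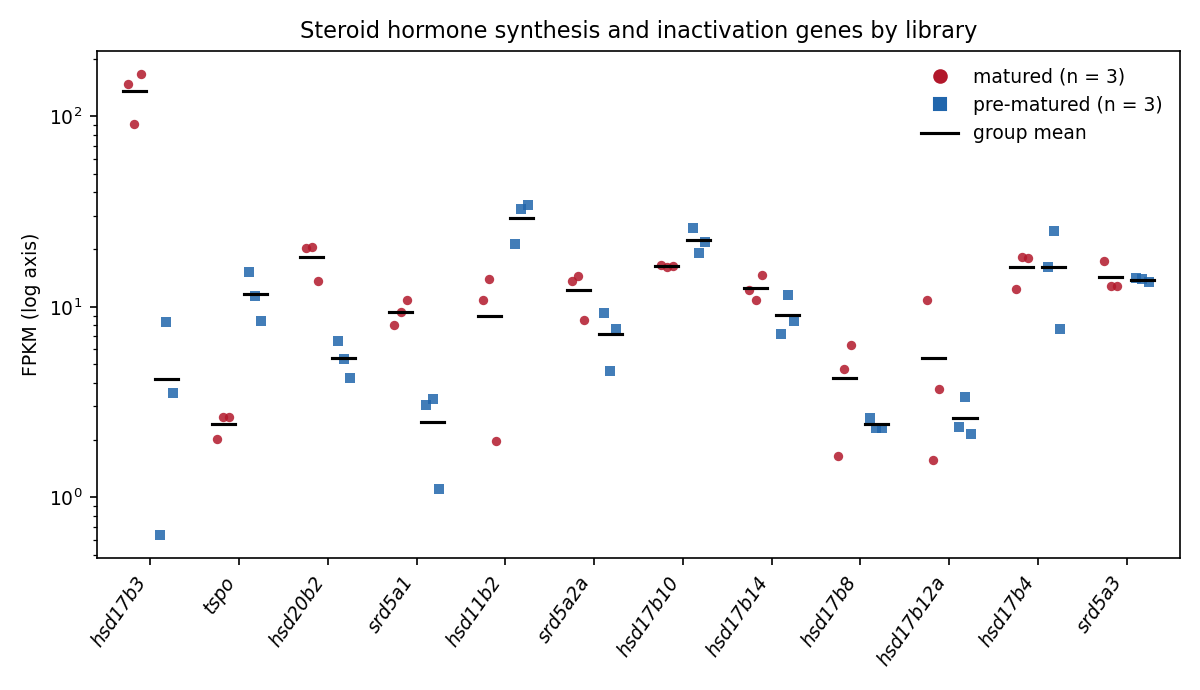
FPKM (log axis) of the 12 tested genes of the steroid hormone synthesis and inactivation group in each library, matured left (red circles) and pre-matured right (blue squares) of each gene, with the group mean as a black line. Hsd17b3 lay at 90.8 to 167 FPKM in matured and at or below 8.32 FPKM in pre-matured libraries, and tspo and hsd11b2 lay the other way round.

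The share of cholesterol synthesis enzymes called higher in matured pituitaries was near that of all genes tested. Of 15 tested enzymes 4 were higher (idi1, fdft1, sc5d and dhcr7) and 0 lower, or 26.7% higher against 23.4% of all genes tested. The other tested enzymes had log2 fold changes on both sides of 0. Those of hmgcs1 and fdps, 0.17 and 0.14, were below 0 under quantile normalization and median-ratio scaling. Fdft1, squalene synthase, stood at 19.6, 23.6 and 26.8 FPKM in the matured libraries, against 8.99, 9.299 and 14.49 FPKM in the pre-matured libraries (log2 fold change 1.05 ± 0.24 SE, limma adjusted p = 0.0126). The groups did not overlap, and matured 3 and pre-matured 3 were the highest of their groups. Without matured 3 the log2 fold change was 0.95 and the call was lost (limma adjusted p = 0.0524, the only loss over 14 alternatives). That fit tested fewer genes. It called 0 of the 9 mevalonate and squalene enzymes higher, against 1 without matured 3 when the same genes were tested. Idi1, which isomerises isopentenyl diphosphate, was at 15.7, 16.3 and 15.4 FPKM in the matured libraries, against 9.94, 9.997 and 9.596 FPKM in the pre-matured libraries (log2 fold change 0.63 ± 0.18 SE, limma adjusted p = 0.0303). Both groups were tight, and the call was lost under quantile normalization, under median-ratio scaling and without any of 5 libraries (adjusted p up to 0.125 over all 14 alternatives).

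Near the end of the pathway, dhcr7, the reductase that turns dehydrocholesterol into cholesterol, had 29.6, 16.7 and 17.8 FPKM in the matured libraries, against 7.09, 9.34 and 11.9 FPKM in the pre-matured libraries (log2 fold change 1.08 ± 0.28 SE, limma adjusted p = 0.0201). Matured 1 was well above the other matured libraries, and without it the call was lost (log2 fold change 0.83, limma adjusted p = 0.0789), as without pre-matured 1 (limma adjusted p = 0.0572). Sc5d, the sterol desaturase just before it, was at 5.48, 5.099 and 6.599 FPKM in the matured libraries, against 2.87, 1.29 and 2.88 FPKM in the pre-matured libraries (log2 fold change 1.04 ± 0.29 SE, limma adjusted p = 0.0248). The groups stood apart, and the call was lost with quantile normalization, median-ratio scaling and without any of 4 libraries (adjusted p up to 0.123 over all 14 alternatives).

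The early mevalonate kinases lay the other way. The values of mvk, mevalonate kinase, were 4.09, 4.06 and 4.13 FPKM in the matured libraries, against 5.72, 10.9 and 6.802 FPKM in the pre-matured libraries (log2 fold change -0.75 ± 0.27 SE, limma adjusted p = 0.0604). Those of pmvk, the next kinase, were 2.19, 2.38 and 3.46 FPKM in the matured libraries, against 4.995, 3.88 and 5.58 FPKM in the pre-matured libraries (log2 fold change -0.67 ± 0.26 SE, limma adjusted p = 0.0787). Mvda, the decarboxylase after it, gave 3.56, 3.19 and 3.27 FPKM in the matured libraries, against 4.31, 3.69 and 4.803 FPKM in the pre-matured libraries (log2 fold change -0.28 ± 0.23 SE, limma adjusted p = 0.384). In all 3 genes each matured library was below each pre-matured one, as for 15.9% of all genes tested. These 3 genes were picked out after their values were seen. None passed the threshold, while mvk and pmvk passed with quantile normalization and with median-ratio scaling, and mvk also without pre-matured 1. Their log2 fold changes were below 0 in all alternative fits, that of mvda between -0.63 and -0.013.

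The sterol-regulated entry enzymes were not called. Hmgcra, HMG-CoA reductase, the rate-limiting enzyme, was at 10.6, 16.2 and 17.1 FPKM in the matured libraries, against 12.9, 7.54 and 7.74 FPKM in the pre-matured libraries (log2 fold change 0.600 ± 0.28 SE, limma adjusted p = 0.13), where matured 1 lay below pre-matured 1. It passed with TPM and with trimmed totals. Hmgcs1, HMG-CoA synthase, was at 4.84, 5.47 and 6.72 FPKM in the matured libraries, against 4.396, 5.15 and 5.14 FPKM in the pre-matured libraries, with an interval of the log2 fold change from -0.35 to 0.69. Sqlea, squalene epoxidase, gave 1.95, 3.63 and 9.096 FPKM in the matured libraries, against 2.41, 2.08 and 3.91 FPKM in the pre-matured libraries, with matured 3 above every other library. Fdps, farnesyl diphosphate synthase, reached 9.81 FPKM in matured 3 and lay between 4.20 and 5.85 FPKM in the other 5. Of the late enzymes, hsd17b7, ebp and nsdhl overlapped between groups with log2 fold changes of 0.47, -0.30 and -0.42, and lss, lanosterol synthase, was under the filter at 0.481 to 1.55 FPKM.

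**Figure D2:**
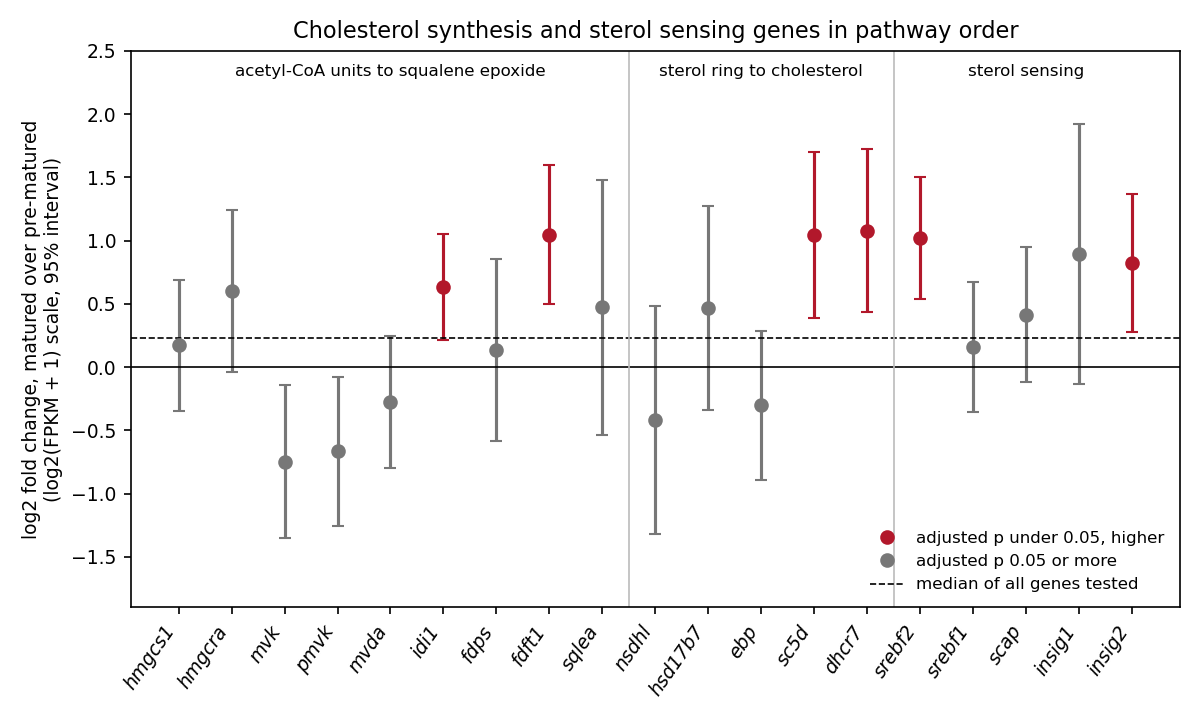
Log2 fold change of matured over pre-matured (log2(FPKM + 1) scale) with its 95% interval for 19 genes, in the order of the pathway from left to right and then the sterol sensors. Idi1, fdft1, sc5d, dhcr7, srebf2 and insig2 (red) passed an adjusted p of 0.05. Mvk, pmvk, mvda, nsdhl and ebp lie below 0, and the dashed line is the median of all genes tested, 0.23.

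Among the 5 sterol sensing genes srebf2 and insig2 were higher and 0 were lower, or 40% higher against 23.4% of all genes tested. Srebf2, the transcription factor gene of the sterol response, was at 13.4, 15.3 and 17.2 FPKM in the matured libraries, against 6.13, 6.91 and 8.14 FPKM in the pre-matured libraries (log2 fold change 1.02 ± 0.21 SE, limma adjusted p = 0.00838). All matured libraries lay above all pre-matured ones. Its relative srebf1, which acts more on fatty acid genes, had 12.9, 18.9 and 13.5 FPKM in the matured libraries, against 12.2, 12.1 and 15.6 FPKM in the pre-matured libraries and overlapped between groups, with a 95% interval of the log2 fold change from -0.35 to 0.67. Insig2 was at 11.95, 11.9 and 8.87 FPKM in the matured libraries, against 4.44, 6.095 and 6.75 FPKM in the pre-matured libraries (log2 fold change 0.82 ± 0.24 SE, limma adjusted p = 0.0299), without overlap, and its call was lost with quantile normalization and median-ratio scaling and without matured 1, matured 2 or pre-matured 1 (adjusted p up to 0.114 over the alternatives). Insig1, itself a target of SREBP2 in mammals, was at 16.01, 18.4 and 41.8 FPKM in the matured libraries, against 7.04, 11.7 and 20.7 FPKM in the pre-matured libraries (log2 fold change 0.89 ± 0.45 SE, limma adjusted p = 0.159). Matured 3 was the highest and pre-matured 3 lay above matured 1 and matured 2. Scap was at 5.598, 5.71 and 8.01 FPKM in the matured libraries, against 4.11, 4.46 and 5.03 FPKM in the pre-matured libraries, above in every matured library but not called (log2 fold change 0.41 ± 0.24 SE, limma adjusted p = 0.205).

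The matured libraries differed among themselves in these genes. Matured 3 was the highest matured library for 14 of the 20 tested synthesis and sensing genes, or 70.0%, against 25.1% of all genes tested. Relative to the mean of the 3 matured libraries, the median of the 20 genes was 0.853 in matured 1, 0.959 in matured 2 and 1.15 in matured 3, while over all genes tested it was 0.968, 1.06 and 0.946. The ratio in matured 3 was 1.86 for sqlea, 1.64 for insig1 and 1.58 for both fdps and nsdhl. Dhcr7, idi1, mvda, hsd17b7, srebf1 and insig2 were highest in another matured library. Without matured 3 the log2 fold change was -0.012 for sqlea and -0.20 for fdps, against 0.47 and 0.14 with all libraries.

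**Figure D3:**
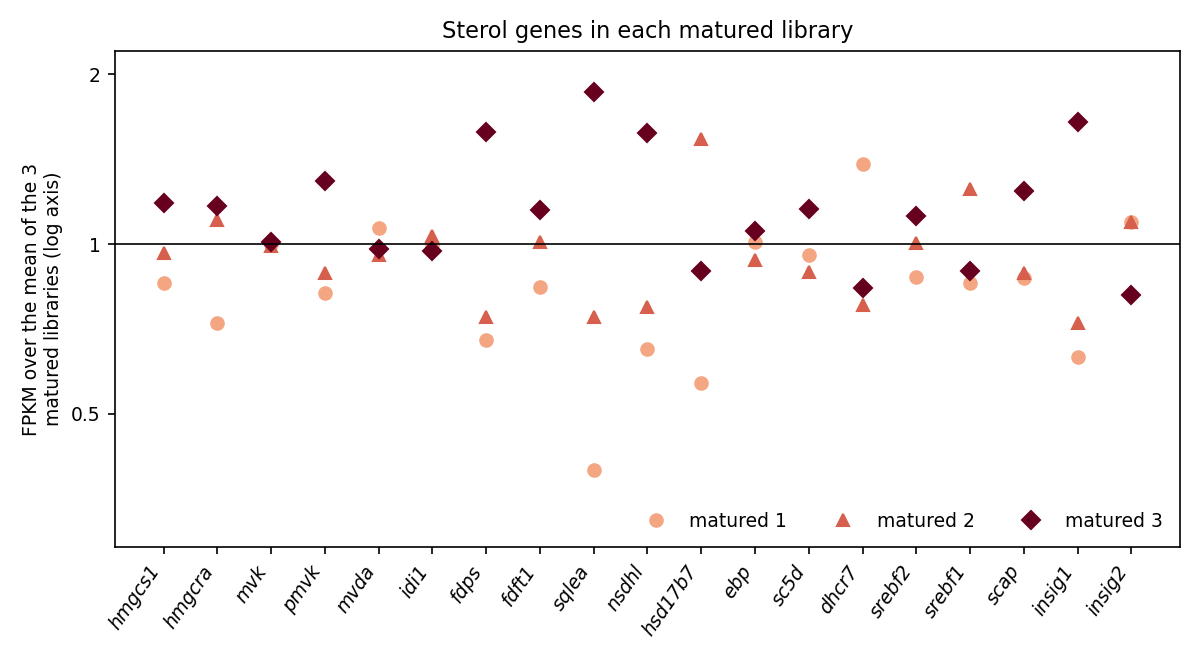
FPKM in each matured library over the mean of the 3 matured libraries (log axis) for 19 sterol synthesis and sensing genes in pathway order, as light circles (matured 1), triangles (matured 2) and dark diamonds (matured 3). Matured 3 is the highest for most of them and reaches 1.86 for sqlea, where matured 1 is at 0.398.

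Of 8 genes for lipoprotein receptors, their relatives and apolipoprotein E, 6 were tested. Scarb1, scarb2a, scarb2c and ldlrad3 were higher in matured pituitaries and apoeb was lower. As shares this is 66.7% and 16.7%, against 23.4% and 10% of all genes tested. Ldlrad3 passed the filter only through the matured libraries. The higher genes numbered 2 under quantile normalization, 3 under median-ratio scaling and 5 with TPM. In those fits 16.3%, 17.9% and 31.3% of all genes tested were higher. Scarb1, the receptor for high-density lipoprotein, was at 9.59, 12.8 and 11.6 FPKM in the matured libraries, against 4.32, 5.95 and 3.67 FPKM in the pre-matured libraries (log2 fold change 1.14 ± 0.24 SE, limma adjusted p = 0.0091). The groups did not overlap. The scarb2 paralogs encode a lysosomal membrane protein that sorts glucocerebrosidase, and because their sequences are related some reads may be shared. Of these scarb2c was at 17.2, 14.4 and 14.3 FPKM in the matured libraries, against 3.56, 3.44 and 5.72 FPKM in the pre-matured libraries (log2 fold change 1.66 ± 0.24 SE, limma adjusted p = 0.00239). Scarb2a was at 6.69, 6.88 and 9.98 FPKM in the matured libraries, against 2.004, 4.08 and 4.396 FPKM in the pre-matured libraries (log2 fold change 1.01 ± 0.30 SE, limma adjusted p = 0.0329). Both stood apart between groups, and the call of scarb2a was lost under 7 of 14 alternatives (adjusted p up to 0.124). Ldlrad3, a receptor with low-density lipoprotein receptor domains, was low, at 2.91, 4.698 and 1.68 FPKM in the matured libraries, against 0.611, 0.815 and 0.139 FPKM in the pre-matured libraries (log2 fold change 1.39 ± 0.34 SE, limma adjusted p = 0.0157), and on 6 to 36 reads in pre-matured libraries. Ldlrb, the low-density lipoprotein receptor, was under the filter, with 0.879, 0.945 and 1.38 FPKM in the matured libraries, against 0.548, 0.519 and 1.08 FPKM in the pre-matured libraries, and its groups overlapped.

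Apoeb, the lipid carrier apolipoprotein E, which in mammals is made by liver, macrophages and glia, was the highest gene of the set in each pre-matured library. It was at 36.5, 13.9 and 37.7 FPKM in the matured libraries, against 63.8, 131 and 346 FPKM in the pre-matured libraries (log2 fold change -2.37 ± 0.64 SE, limma adjusted p = 0.0267). All matured libraries were below all pre-matured ones, and the pre-matured libraries spread widely. Without pre-matured 3, the highest, the log2 fold change was -1.73 and the call remained. It was lost without any 1 matured library or without pre-matured 2 (limma adjusted p 0.0553 to 0.0903). With the same genes tested the call was kept without matured 1 and without matured 3. It was still lost without matured 2 and without pre-matured 2. White blood cell, glial and myelin genes in sum were also highest in pre-matured 3, at 1007, 364 and 101 FPKM, of which cd74b made 826, glulb 203 and mbpa 96.3 FPKM. Without those genes the sums in pre-matured 3 were 182, 161 and 4.45 FPKM, below those of pre-matured 2 at 205, 169 and 4.90 FPKM. Their part in the difference was not tested.

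Of 25 genes for transfer of sterols and other lipids inside the cell, 22 were tested, 8 were higher and 1 lower. These are 36.4% and 4.55%, against 23.4% and 10% of all genes tested. The counts include genes known for other tasks: stard9 (higher), stard13b (the lower gene) and stard8 (not called). Stard9 and stard8 passed the filter only through the matured libraries. The smallest adjusted p was that of stard4, a cytosolic carrier of cholesterol to the endoplasmic reticulum, at 5.23, 9.02 and 7.23 FPKM in the matured libraries, against 2.71, 0.7696 and 1.29 FPKM in the pre-matured libraries (log2 fold change 1.698 ± 0.34 SE, limma adjusted p = 0.00704). The groups did not overlap, on 82 to 173 matured reads against 14 to 51 pre-matured reads. Its relative stard5 was at 18.03, 19.6 and 17.8 FPKM in the matured libraries, against 9.87, 11.99 and 10.6 FPKM in the pre-matured libraries (log2 fold change 0.73 ± 0.19 SE, limma adjusted p = 0.02), with both groups tight and apart. Stard3nl, a late endosome tether, was at 6.52, 7.04 and 6.27 FPKM in the matured libraries, against 2.34, 3.51 and 4.34 FPKM in the pre-matured libraries (log2 fold change 0.82 ± 0.25 SE, limma adjusted p = 0.0379), while stard3, which binds cholesterol there, overlapped with a log2 fold change of 0.33 and an interval from -0.27 to 0.93. Stard7, a carrier of phosphatidylcholine to mitochondria, was at 3.602, 5.45 and 4.05 FPKM in the matured libraries, against 1.72, 2.42 and 1.77 FPKM in the pre-matured libraries (log2 fold change 0.85 ± 0.26 SE, limma adjusted p = 0.0359).

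In the oxysterol-binding protein family 3 of 10 tested genes were higher, or 30% against 23.4% of all genes tested. Osbpl1a, a cholesterol sensor of late endosomes, was at 9.55, 12.03 and 10.6 FPKM in the matured libraries, against 4.01, 6.53 and 4.998 FPKM in the pre-matured libraries (log2 fold change 0.94 ± 0.24 SE, limma adjusted p = 0.0175). Osbpl2b was at 12.3, 12.96 and 10.8 FPKM in the matured libraries, against 4.85, 6.36 and 8.98 FPKM in the pre-matured libraries (log2 fold change 0.78 ± 0.25 SE, limma adjusted p = 0.0416). Osbpl10b was at 2.304, 2.72 and 2.96 FPKM in the matured libraries, against 1.08, 0.849 and 0.634 FPKM in the pre-matured libraries (log2 fold change 0.99 ± 0.24 SE, limma adjusted p = 0.0162). None of the 3 overlapped between groups. The most abundant members did not pass: osbpl9, of the Golgi, was at 92.2, 51.99 and 71.8 FPKM in the matured libraries, against 41.7, 85.97 and 87.4 FPKM in the pre-matured libraries, with an interval of the log2 fold change from -0.71 to 0.80, and osbpl8, of contacts with the plasma membrane, overlapped with a log2 fold change of 0.49. The founding member osbp and osbpl3b, osbpl6 and osbpl11 had log2 fold changes of -0.051, -0.016, 0.18 and 0.0028. Osbpl5 was above in every matured library and just missed the threshold (log2 fold change 0.67, limma adjusted p = 0.0522). Npc1, which releases cholesterol from lysosomes, was at 4.52, 4.68 and 3.12 FPKM in the matured libraries, against 4.57, 5.11 and 6.25 FPKM in the pre-matured libraries, with an interval from -0.88 to 0.25.

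Calls in the transfer group moved with the fit: 3 higher genes were called with quantile normalization and 3 with median-ratio scaling, 10 were called with TPM and 11 with trimmed totals, and 1 to 7 without any 1 library, with 1 without each of the matured libraries in turn. With the same genes tested these were 4, 3 and 1 without matured 1, 2 and 3. In the order quantile, median-ratio, TPM and trimmed totals, 16.3%, 17.9%, 31.3% and 34.9% of all genes tested were higher. With 1 library left out, 11.5% to 22.7% of all genes tested were higher. Among alternative fits, the call was lost under 2 of 9 for stard9, 3 of 14 for osbpl1a and 4 of 13 for osbpl10b. It was lost under 4 of 14 for stard5, 7 of 13 for stard7 and 8 of 14 for both stard3nl and osbpl2b. Osbpl10b, stard7 and stard9 were not tested with the filter of 5 FPKM. Stard9 was also under the filter with median-ratio scaling and without any 1 matured library, so it was not tested there. Stard9, a kinesin gene, was low, at 1.31, 1.12 and 2.53 FPKM in the matured libraries, against 0.0136, 0.267 and 0.374 FPKM in the pre-matured libraries (log2 fold change 1.099 ± 0.28 SE, limma adjusted p = 0.0177), on 2 to 52 reads in pre-matured libraries. Stard13b, the GTPase-activating protein gene, was at 1.08, 1.602 and 4.205 FPKM in the matured libraries, against 50.5, 19.2 and 4.35 FPKM in the pre-matured libraries (log2 fold change -2.54 ± 0.78 SE, limma adjusted p = 0.0427). Pre-matured 3 lay close to matured 3, and the call was lost with voom, with no filter and without any library other than pre-matured 3 (adjusted p up to 0.150). Its paralog stard13a, under the filter, was at 0.752, 0.614 and 0.825 FPKM in the matured libraries, against 3.46, 1.16 and 0.848 FPKM in the pre-matured libraries, with pre-matured 1 highest in both. Of the 8 tested fibroblast and mural cell genes, the smooth muscle genes tagln and acta2 were lower as well, and the other 6 had log2 fold changes of 0.44 to 1.79. Their part in this difference was not tested. Stard10, a phospholipid carrier, was at 45.7, 65.7 and 50.3 FPKM in the matured libraries, against 32.8, 44.8 and 44.01 FPKM in the pre-matured libraries and was not called (log2 fold change 0.398 ± 0.22 SE, limma adjusted p = 0.194). Stard14 and stard15 overlapped between groups, with log2 fold changes of -0.051 and -0.32.

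**Figure D4:**
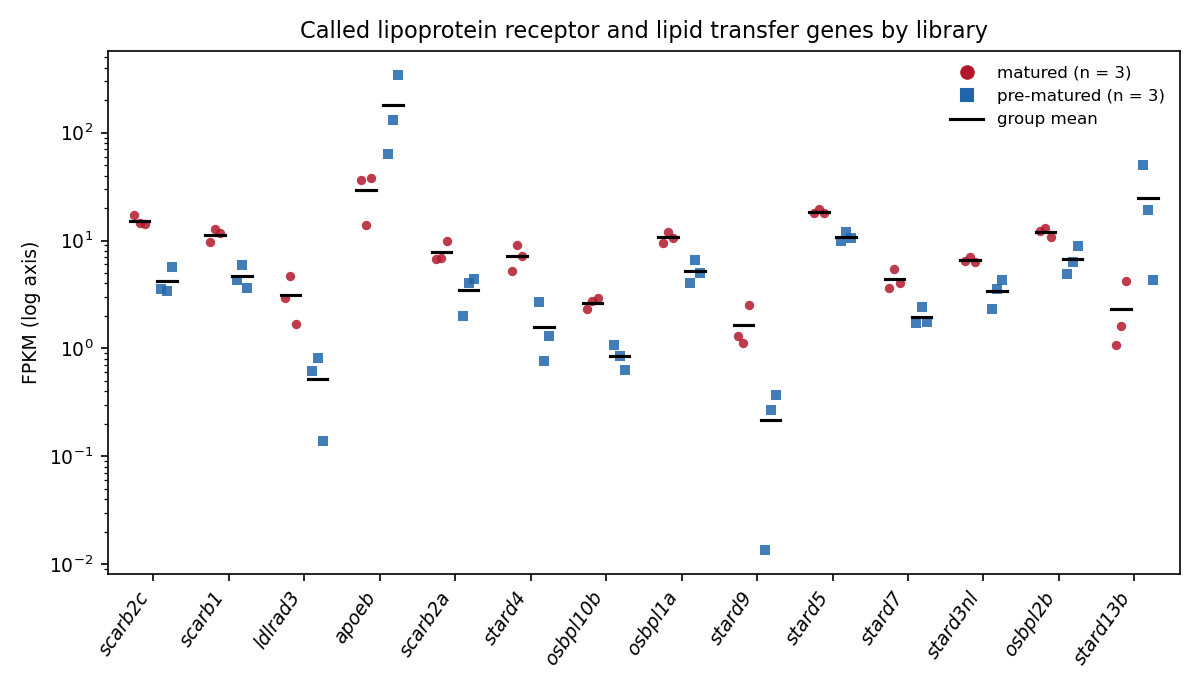
FPKM (log axis) in each library of the 14 called genes of lipoprotein receptors, apolipoprotein E and lipid transfer, matured left (red circles) and pre-matured right (blue squares), with the group mean as a black line. Apoeb and stard13b are lower in matured libraries and the other 12 genes higher, with no overlap between groups in any of the 14. The 14 were drawn for their calls in these same libraries, so the lack of overlap is no separate support for them. For ldlrad3 and stard9 the filter also fixed it, as they passed only through the matured libraries.

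Of 7 genes of cholesterol export and storage 3 were tested and 0 were called by limma, with 1 (abcg4a) at an unadjusted p under 0.05 and 1 called by voom. No abca1 or abcg1 symbol was among them, as the abca1 part of the pattern matched only abca12. These exporters are thus not analysed here. Soat1, which esterifies cholesterol, was at 6.75, 6.03 and 5.05 FPKM in the matured libraries, against 5.12, 5.66 and 5.56 FPKM in the pre-matured libraries, with an interval of the log2 fold change from -0.40 to 0.60. Soat2 varied widely within both groups, at 2.11, 7.65 and 1.23 FPKM in the matured libraries, against 0.0649, 1.35 and 6.22 FPKM in the pre-matured libraries. Abcg4a, an exporter of cholesterol in the brain of mammals, was at 3.39, 1.15 and 1.53 FPKM in the matured libraries, against 0.372, 0.656 and 0.659 FPKM in the pre-matured libraries, above in every matured library (log2 fold change 0.89 ± 0.31 SE, limma adjusted p = 0.0577), and was called with TPM, with trimmed totals and with voom. Abcg4a passed the filter only through the matured libraries, which fixed that order of its groups. The ketone body gene hmgcll1 overlapped between groups, with a log2 fold change of 0.0069.

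Genes around these pathways that the pattern does not cover were taken from 4 lists, of which 60 of 110 symbols were in the table and 46 were tested. Of these 11 (23.9%, against 23.4% of all genes tested) were higher and 0 lower by limma, with 7 lower under quantile normalization and 7 under median-ratio scaling, and 5 were lower at an unadjusted p under 0.05 in the limma fit. Of all genes tested, 16.2% were lower under quantile normalization and 15.4% under median-ratio scaling. Among 12 tested partners of lipoprotein and sterol traffic 6 were higher, or 50% against 23.4% of all genes tested. Lrp8, a receptor for apolipoprotein E and reelin, was at 8.02, 17.3 and 10.8 FPKM in the matured libraries, against 1.45, 2.24 and 1.61 FPKM in the pre-matured libraries (log2 fold change 2.18 ± 0.31 SE, limma adjusted p = 0.00212). Gramd1bb, of the family that moves cholesterol from the plasma membrane to the endoplasmic reticulum, was at 9.84, 28.4 and 9.99 FPKM in the matured libraries, against 1.64, 2.32 and 1.94 FPKM in the pre-matured libraries (log2 fold change 2.36 ± 0.39 SE, limma adjusted p = 0.00357), and gramd1a, of the same family, was also higher (log2 fold change 0.75). Vapb, the anchor on the endoplasmic reticulum that binds oxysterol-binding proteins, was at 33.01, 40.7 and 37.3 FPKM in the matured libraries, against 6.76, 12.7 and 8.82 FPKM in the pre-matured libraries (log2 fold change 1.899 ± 0.25 SE, limma adjusted p = 0.0017). The lysosomal membrane gene lamp2 and the phospholipid transfer protein gene pltp were higher with log2 fold changes of 1.56 and 0.998. Vldlr, a receptor for very low density lipoprotein, lay below in every matured library and was not called (log2 fold change -0.55 ± 0.21 SE, limma adjusted p = 0.0784).

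In the remaining lists pora, the electron donor of microsomal cytochromes P450, was at 16.2, 15.9 and 14.1 FPKM in the matured libraries, against 3.83, 8.400 and 6.54 FPKM in the pre-matured libraries (log2 fold change 1.23 ± 0.27 SE, limma adjusted p = 0.0109) and was the only one called of 14 tested partners of synthesis. Of 11 tested sterol-responsive regulators ufd1l, of protein extraction from the endoplasmic reticulum, was higher (log2 fold change 0.90). The proteases that release SREBP in the Golgi, mbtps1 and mbtps2, lay below in every matured library and were not called (log2 fold change -0.64 and -0.37). Of 9 tested genes for conjugation and reduction 3 were higher. They were papss1, which makes the sulfate donor (log2 fold change 1.29), cbr1, a carbonyl reductase (0.82), and ugt8, which acts on ceramide rather than steroids (1.13). The shares higher were 7.14% for partners of synthesis, 9.09% for regulators and 33.3% for conjugation and reduction, against 23.4% of all genes tested.

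**Figure D5:**
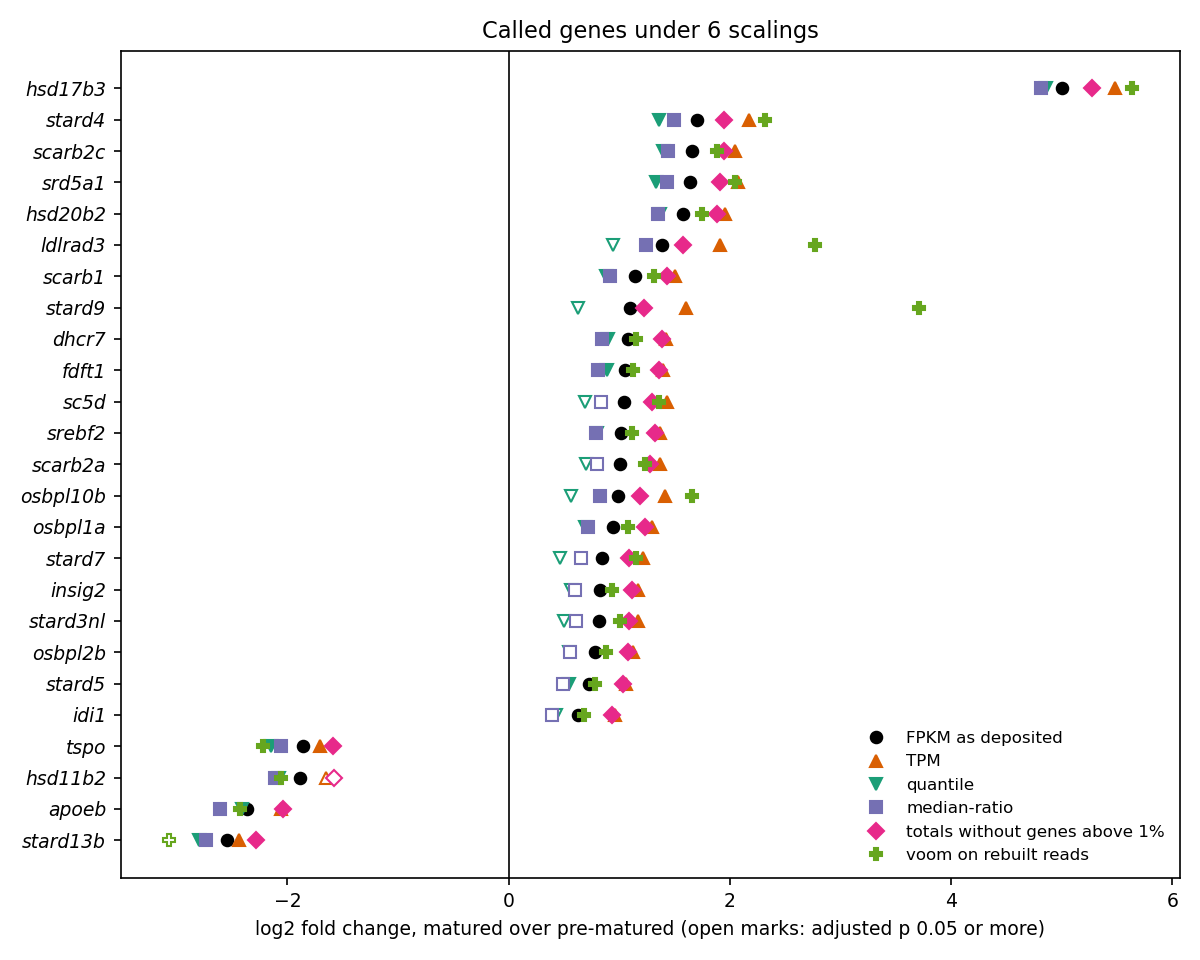
Log2 fold change of matured over pre-matured for the 25 called genes under 6 scalings, 1 row per gene. Filled marks show an adjusted p under 0.05 and open marks one at or above it. Stard9 has no mark for median-ratio scaling, where it was under the filter. No gene changes sign, and hsd17b3, tspo, hsd20b2, srd5a1, scarb1, scarb2c, stard4, srebf2, fdft1, dhcr7, osbpl1a and apoeb keep their call under all 6.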

How the data were processed

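Per the labels' protocols, pituitary RNA was isolated with TRIzol and NEBNext Ultra II reagents were used to make the libraries. The submitters' processing notes list CASAVA 1.8. Aligner, counter and genome build: not given in the sources used here. Deposited by the authors was 1 table of FPKM values for 32359 genes in 6 libraries; the unit was read from the values, so FPKM and RPKM cannot be told apart. Whole reads could be rebuilt for 100% of the 25782 genes above 0 in at least 2 libraries, at a relative tolerance of 1e-12.

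Genes at 1 FPKM or more in at least 3 libraries (17887) entered a limma fit of log2(FPKM + 1) (version 3.58.1, R 4.3.3, trended and robust variances), and p-values were adjusted by Benjamini-Hochberg over all of them. A fold change on that scale understates the change of low genes. Values with ± are SE for log2 fold changes, and n is 3 libraries per group. Read-based precision covers counting error only. Named genes are all called members, the 2 most abundant per role, and a list of well-known pathway genes; others, such as mvk, pmvk, mvda and sqlea, were chosen after their values were seen. The members and lists were chosen with earlier results of these data known. Alternatives were other filters, pseudocounts, scalings and thresholds, voom on rebuilt reads, and leaving out each library. The fit was also run on simulated reads with as many genes raised as lowered, which cannot test how the calls depend on scaling. Reads of related paralogs (stard13a and stard13b, srd5a2a and srd5a2b, scarb2a and scarb2c) may be shared, which was not tested. Results for some genes are not reported here. No sequences are shown.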

Additional observations from a re-analysis of the deposited data

How the results depend on the processing

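Against 21 members higher and 4 lower, quantile normalization gave 11 higher and median-ratio scaling 12. Of all genes tested, 16.3% and 17.9% were higher there. An adjusted p under 0.01 gave 7 higher and 1 lower, and a fold of at least 2 gave 13 higher. The shares of all genes tested at that adjusted p and that fold were not computed. Leaving out 1 library gave 8 to 19 higher and 1 to 3 lower. Of all genes tested in those fits, 11.5% to 22.7% were higher and 5.68% to 8.88% lower. The fits without a matured library tested fewer genes (16856, 16696 and 16802). With the same genes tested, an alternative chosen after seeing the data, they gave 12, 13 and 11 higher and 2, 2 and 3 lower, and without pre-matured 2 it gave 1 lower. All genes tested were higher for 15.1%, 15.6% and 17.0% without matured 1, 2 and 3, and lower for 5.88%, 7.32% and 6.50%. Of the other pathway genes, 11 were higher, against 19 with TPM, 22 with totals taken without genes above 1%, 6 at an adjusted p under 0.01, 7 at a fold of at least 2, and 7 to 11 with 1 library left out. None of the pathway genes was lower, against 1 with a filter of 5 FPKM, 7 under quantile normalization and 7 under median-ratio scaling. With 1 library left out 0 to 2 were lower. Of all genes tested, 14.1% were lower with that filter, 16.2% under quantile normalization and 15.4% under median-ratio scaling. The cause was not tested.

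Among the genes taken by the naming rule, those that reversed were all uncalled. Log2 fold changes with quantile normalization were -0.13 for hmgcs1, -0.023 for srebf1, -0.20 for soat1 and -0.22 for hmgcll1. With median-ratio scaling they were -0.039 for hmgcs1, -0.076 for srebf1, -0.20 for osbpl9, -0.11 for soat1 and -0.22 for hmgcll1. With 1 library left out, srebf1 lay between -0.0015 and 0.27, soat2 between -0.072 and 1.31, osbpl9 between -0.30 and 0.26 (-0.15 without matured 1), and hmgcll1 between -0.25 and 0.33 (-0.065 without matured 1, -0.13 without matured 2 and -0.062 without pre-matured 3). Of 746 alternative values of single genes, 583 kept their direction and side of the threshold, 135 lost the call, 3 gained it and 25 reversed. No paired analysis was possible because the labels give the groups no shared replicate numbers.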

Other observations

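Some members were at few or no reads in all libraries but pre-matured 3. Osbpl7, of the oxysterol-binding protein family, had 841 reads (11.4 FPKM) there, 8 reads in matured 1 and 0 in the other 4 libraries. Abca12 had 0 to 13 reads in matured libraries, against 1, 26 and 615 reads in pre-matured 1, 2 and 3. Abcg8, a partner in the sterol exporter of liver and gut that it forms with abcg5, was low but differed between groups, with 1, 0 and 0 reads in matured 1, 2 and 3 and 20, 18 and 22 reads in pre-matured 1, 2 and 3. It was under the filter and was called lower only in the fit with no filter. These 3 genes were chosen after their values were seen.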
